A study of Rattus norvegicus with 12 samples.

Results

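The genes described here are 37 genes of the contractile machinery of the detrusor, the smooth muscle of the bladder wall, listed by gene symbol, with earlier results of these data known, out of the 40154 genes of the deposited count table. All 37 were found and all 37 passed the filter on low counts, as did 17687 genes in total. RNA came from whole bladders of Wistar rats, an outbred strain, all female and 10-12 weeks old. In 3 injured groups the cord was completely transected at T10, in the lower thoracic spine, and the bladder was taken 7, 14 or 28 days later. The fourth group was labelled as normal control, that is, uninjured rats of the same strain and age, with no sham operation mentioned. Each group had 3 libraries. The labels do not say whether a library came from 1 rat, so p-values measure the spread between these libraries. No transgene, drug or mutation is named for any group.

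Smooth muscle contracts when calcium, entering through membrane channels and released from internal stores, activates myosin light chain kinase, which phosphorylates the light chain of myosin and lets it pull on actin. Myosin phosphatase reverses that step. The filaments are anchored to dense bodies inside the cell and to dense plaques and the dystrophin complex at its membrane, and many of the genes are switched on by serum response factor (SRF) with its co-activator myocardin. After a cord injury above the sacral micturition centre the bladder is first flaccid and overfilled, and later contracts by a spinal reflex against a sphincter that does not relax.

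SRF binds a short sequence called the CArG box, a pair of C, a run of A or T and a pair of G, which reads alike on both strands. RefSeq promoter windows of the rat assembly GRCr8 (250 bases before and 50 after a start) were given for 31 of the 37 genes, 35 windows in all. An exact CArG box lay in 3 of these windows (8.57%), those of Srf, Ldb3 and Dmd, against 1.64% of all 33469 windows. With 1 departure allowed in the A or T run, 4 windows (11.4%) held a box, against 9.42% of all windows, and the fourth was that of Acta2. The 250 bases before the start are shown for Acta2, a gene that rose at day 7, for Dmd, a gene that fell, and for Srf itself. All are written 5′ to 3′ on the strand of the gene, with the boxes in capitals. The Acta2 stretch is chr1:241172504-241172753 on the minus strand, with boxes that begin 134 and 84 bases before the start, each with 1 departure.
Acta2: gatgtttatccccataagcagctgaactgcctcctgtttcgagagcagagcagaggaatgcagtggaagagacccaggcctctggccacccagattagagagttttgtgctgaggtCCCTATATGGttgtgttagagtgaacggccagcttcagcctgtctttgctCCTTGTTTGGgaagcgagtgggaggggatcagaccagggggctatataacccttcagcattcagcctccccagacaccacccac
The Dmd stretch is chrX:51205836-51206085 on the plus strand, 1 of 3 windows given for this gene, with an exact box that begins 98 bases before the start.
Dmd: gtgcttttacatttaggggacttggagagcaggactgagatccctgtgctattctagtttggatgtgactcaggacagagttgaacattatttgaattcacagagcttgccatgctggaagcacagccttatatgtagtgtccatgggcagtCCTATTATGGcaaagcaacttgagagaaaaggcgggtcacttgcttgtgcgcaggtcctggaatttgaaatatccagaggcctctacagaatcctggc
The Srf stretch is chr9:21923826-21924075 on the plus strand, with exact boxes that begin 81 and 61 bases before the start.
Srf: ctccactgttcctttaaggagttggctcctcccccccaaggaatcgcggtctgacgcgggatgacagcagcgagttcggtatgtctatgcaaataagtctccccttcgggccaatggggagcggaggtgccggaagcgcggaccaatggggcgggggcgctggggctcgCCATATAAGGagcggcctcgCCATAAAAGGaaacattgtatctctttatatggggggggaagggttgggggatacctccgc
A match is a description of the letters in these windows, and windows without one can have boxes elsewhere.

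The libraries held 26275314 to 30747936 counts each. Haemoglobin genes took 2.27% of the counts of day-7 replicate 3 and at most 0.306% in every other library. The 37 genes together took 6.85%, 4.38% and 4.67% of all counts in the day-7 libraries, 5.49%, 5.88% and 4.74% at day 14, 4.76%, 3.58% and 2.42% at day 28, and 5.54%, 5.32% and 5.35% in controls. The controls lay close together and the day-28 libraries far apart. The median coefficient of variation of the 37 genes was 24.6% at day 7, 13.7% at day 14, 32.7% at day 28 and 5.74% in controls, against 15.6%, 16.2%, 15.7% and 11.5% for all tested genes. Within day 28 all 37 genes were highest in replicate 1 and 36 were lowest in replicate 3. Within day 7, 32 of the 37 were highest in replicate 1. Since whole bladder was sequenced, fewer muscle cells and less RNA per muscle cell cannot be told apart in any result below.

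**Figure D1:**
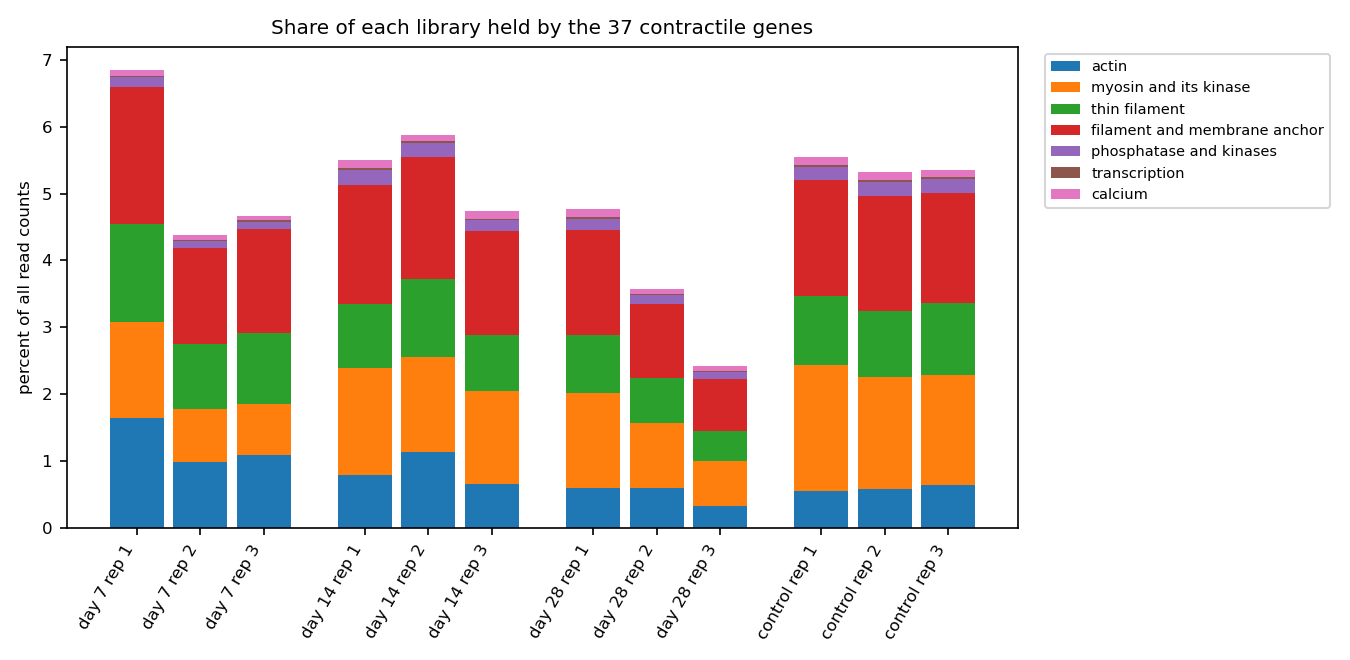
Percent of all read counts held by the 37 contractile genes in each library (vertical axis), stacked by role, for day 7, day 14, day 28 and control, 3 libraries each. The controls sit between 5.32% and 5.54%, and the day-28 libraries run from 4.76% down to 2.42%.

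Levels can be compared between genes only per length, and for this the authors' TPM (counts divided by gene length and rescaled to a common total) were used. The most abundant of the 37 in controls was Tagln (transgelin, an actin-binding protein of smooth muscle), at 7571 ± 343 TPM (SD, n = 3). Then came Actg2 at 5360 ± 294, Myl9 at 3798 ± 362, Csrp1 at 3297 ± 178, Acta2 at 3275 ± 144 and Myh11 at 3064 ± 402 TPM. Csrp1, Acta2 and Myh11 are neighbours that lay within their SDs of one another. Actg2 ranked 15th among all genes in controls and Tagln 13th. At day 7 Actg2 stood at 13217 ± 4558 TPM and ranked first of the 37 and sixth of all genes, ahead of Tagln at 7483 ± 2516 TPM. The lowest of the 37 was the ryanodine receptor Ryr2, at 0.640 ± 0.215 TPM at day 7 and 0.708 ± 0.108 TPM in controls. Several of these genes, such as Flna, Vcl, Actn1, Myl6, Cald1 and Cav1, are also made by fibroblasts and endothelium, so their levels here are not those of muscle alone.

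At 7 days after transection the machinery was split: 8 genes rose, 10 fell and 19 did not pass the test (edgeR quasi-likelihood test, Benjamini-Hochberg adjusted p under 0.05 over all tested genes). Those that rose were both smooth muscle actins, Cnn1, Cald1, Des, Vcl, Actn1 and Pdlim7, and those that fell were Mylk, Smtn, Lmod1, Synm, Pdlim3, Dmd, Ppp1r12a, Ppp1r14a, Pln and Atp2a2. Of all tested genes 15.6% rose and 10.5% fell in that comparison. The share of the 37 was above this background in both directions, which, since the genes were chosen with earlier results known, is a description. The median log2 fold change was −0.15 over the 37 and −0.01 over all tested genes. All 3 day-7 libraries lay above all controls for 10 of the 37 and below them for 15, against 23.6% and 21.7% of all tested genes. Scaling by library totals alone moved the median of all tested genes at day 7 to −0.14 and left 6 of the 37 higher and 13 lower, with Cald1 (adjusted p = 0.0608) and Pdlim7 (adjusted p = 0.0827) no longer called. With 1 library left out at a time, 8 of the 18 calls were kept each time, those of Actg2, Des, Vcl, Actn1, Mylk, Dmd, Ppp1r12a and Pln. There were 17 calls without day-7 replicate 1, 11 and 9 without day-7 replicate 2 and 3, and 10, 8 and 10 without control replicate 1, 2 and 3.

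At 14 days after transection none of the 37 was called in either direction, by edgeR or by DESeq2, with 3 and 4 of them at an unadjusted p under 0.05. Of all tested genes 1.45% rose and 0.995% fell. The median log2 fold change over the 37 was −0.06. All 3 day-14 libraries lay above all controls for 7 of the 37 and below them for 8, against 11.5% and 13.2% of all tested genes. The comparisons of all 3 days use the same 3 controls.

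At 28 days after transection the calls were in 1 direction: 9 genes fell and 0 rose, and 34 of the 37 log2 fold changes were below 0, with a median of −0.62 against 0.00 for all tested genes. The 9 were Smtn, Dmd, Mylk, Tagln, Ppp1r12a, Pdlim3, Csrp1, Myl6 and Tpm1. Of all tested genes 7.51% fell and 11% rose. All day-28 libraries lay below all controls for 22 of the 37 and above them for 0, against 19.6% and 20.9% of all tested genes. Mylk, Smtn, Pdlim3, Dmd and Ppp1r12a were called lower at both day 7 and day 28, and 15 of the 37 were called in no comparison with control. The count at day 28 depended on single libraries: 27 genes were called lower without day-28 replicate 1, 3 without replicate 2 or replicate 3, 5, 3 and 4 without control replicate 1, 2 and 3, and only Myl6, Smtn and Dmd were called in each of these fits. DESeq2 called 15 genes lower.

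**Figure D2:**
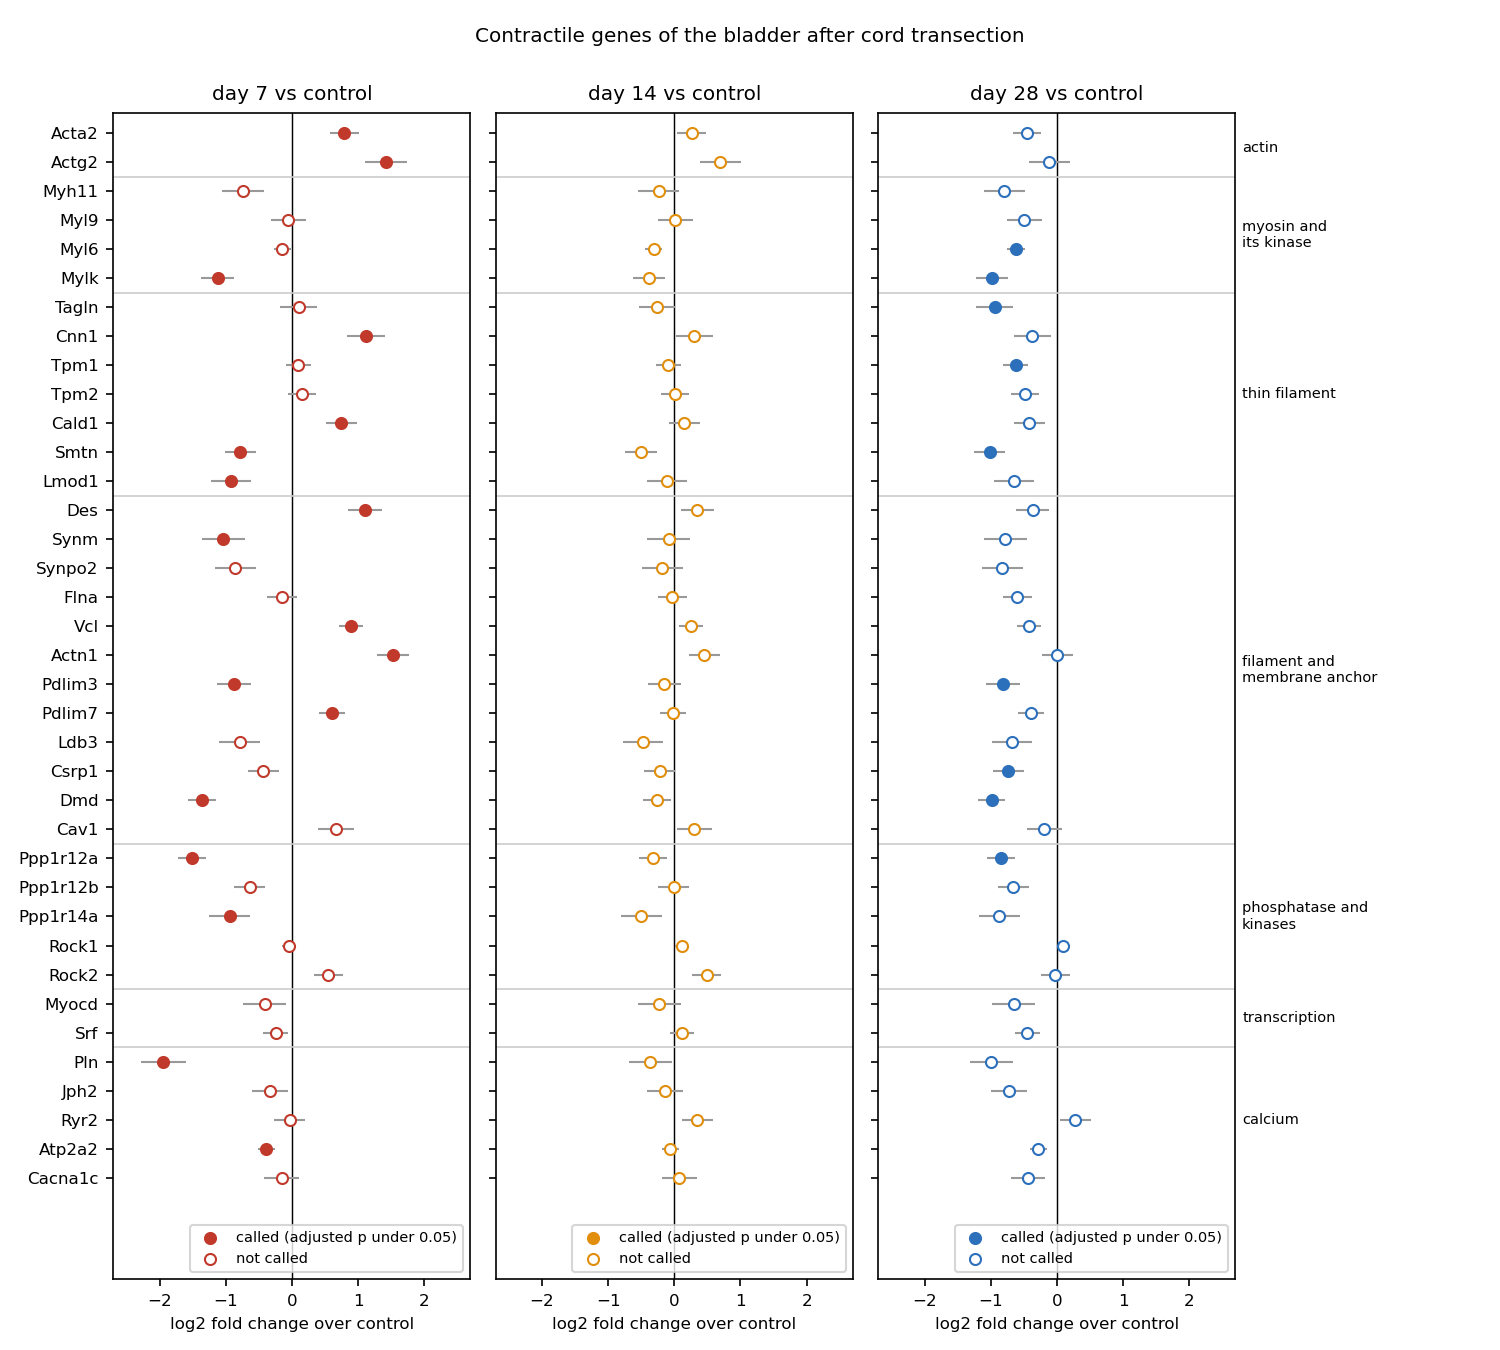
Log2 fold change over control (horizontal axis) with its standard error for the 37 genes, grouped by role down the page, at day 7, day 14 and day 28. Filled points passed the test (adjusted p under 0.05) and open points did not. Filled points lie on both sides of 0 at day 7 (8 higher, 10 lower), there are 0 at day 14, and all 9 lie below 0 at day 28.

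Both smooth muscle actins rose at day 7. Actg2 (chromosome 4, 115215160-115239746 on rn6, minus strand) encodes the gamma actin of visceral muscle. Its levels, in CPM (counts scaled to a common library size after TMM normalisation), were 12676, 7347 and 8293 at day 7, 5012, 8068 and 4052 at day 14, 3985, 3827 and 1965 at day 28, and 3298, 3498 and 3788 in controls. Every day-7 library lay far above the highest control, and the day-28 libraries straddled the controls. The log2 fold change was 1.42 ± 0.32 (SE) at day 7 (adjusted p = 0.00746), 0.69 ± 0.31 at day 14 (adjusted p = 0.278) and −0.11 ± 0.31 at day 28 (adjusted p = 0.838). Acta2, the alpha actin of vascular and other smooth muscle and of myofibroblasts, stood at 4712, 3079 and 3852 CPM at day 7, 2500, 3140 and 2430 at day 14, 1927, 1881 and 1100 at day 28, and 2163, 2168 and 2384 in controls. The day-7 and day-14 libraries all lay above the controls and the day-28 libraries all below them. Acta2 rose by 0.79 ± 0.22 at day 7 (adjusted p = 0.0205), with values of 0.27 ± 0.22 at day 14 (adjusted p = 0.586) and −0.45 ± 0.22 at day 28 (adjusted p = 0.178). Its day-7 call was lost without day-7 replicate 1 or 3 or control replicate 1 or 2 (adjusted p 0.0521 to 0.0684).

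The skeletal muscle actin Acta1, which is not among the 37, rose at day 7 as well. It stood at 1612, 977 and 914 CPM at day 7, 247, 460 and 158 at day 14, 169, 223 and 70.8 at day 28, and 65.4, 72.5 and 73.3 in controls. Its log2 fold change was 4.05 ± 0.48 at day 7 (adjusted p = 0.000246) and 2.03 ± 0.44 at day 14 (adjusted p = 0.0404). Of the other striated muscle genes, the myosin heavy chains Myh1 and Myh2 rose at day 7, by 5.52 ± 0.82 (adjusted p = 0.000783) and 4.80 ± 0.86 (adjusted p = 0.00227). Their levels were far below that of Acta1, since the whole list of 14 striated muscle genes summed to 1902, 1101 and 1049 CPM at day 7. Muscle creatine kinase (Ckm) fell at day 7, by 1.82 on the log2 scale (adjusted p = 0.00312). Myog and Myod1, from the same list, had 0 counts in all 12 libraries. The source of the striated muscle reads was not tested. The coding sequences of the muscle actins are nearly identical and the reads were 50 bases long, so the split of reads among Acta1, Acta2, Actg2 and the cardiac actin Actc1 is uncertain. The same holds between Myl9 and the non-muscle light chains.

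The myosin motor did not rise with the actins. Myh11, the smooth muscle myosin heavy chain, stood at 8880, 4638 and 4636 CPM at day 7, 9364, 8016 and 8295 at day 14, 8476, 5418 and 3580 at day 28, and 11449, 9360 and 9459 in controls. The day-7 and day-28 libraries all lay below the controls. The difference was not called at day 7 (−0.74 ± 0.31, adjusted p = 0.103) or at day 28 (−0.79 ± 0.31, adjusted p = 0.103). It was called without the highest library of each day: −1.13 without day-7 replicate 1 (adjusted p = 0.0168) and −1.17 without day-28 replicate 1 (adjusted p = 0.0202), and also by DESeq2 (adjusted p = 0.0482 at day 7 and 0.0431 at day 28). Myl9, the regulatory light chain, stood at 2835, 1708 and 1656 CPM at day 7, 2060, 2269 and 2164 at day 14, 2171, 1423 and 990 at day 28, and 2349, 2046 and 2050 in controls, with overlapping groups at each day and no call. The essential light chain Myl6, shared with non-muscle cells, stood at 750, 626 and 696 CPM at day 7, 551, 662 and 630 at day 14, 580, 501 and 412 at day 28, and 741, 754 and 792 in controls. It fell at day 28, by 0.62 on the log2 scale (SE 0.13, adjusted p = 0.00804).

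Mylk (chromosome 11, 69013060-69260039 on rn6, minus strand) encodes myosin light chain kinase, the switch of contraction. It stood at 2603, 1519 and 1492 CPM at day 7, 3350, 3069 and 2949 at day 14, 2758, 1977 and 1462 at day 28, and 4020, 4356 and 3852 in controls. The injured libraries lay below every control at all 3 days. The log2 fold change was −1.12 ± 0.25 at day 7 (adjusted p = 0.00685), −0.38 ± 0.25 at day 14 (adjusted p = 0.457) and −0.98 ± 0.25 at day 28 (adjusted p = 0.0179). The day-28 call was lost without day-28 replicate 2 or 3 or control replicate 2 (adjusted p 0.0565 to 0.0608).

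On the thin filament the regulators parted at day 7, with 2 of 7 genes higher and 2 lower. Calponin (Cnn1), which binds actin and restrains the myosin motor, stood at 3673, 2648 and 3455 CPM at day 7, 1483, 2538 and 1521 at day 14, 1523, 1266 and 678 at day 28, and 1488, 1426 and 1576 in controls. Every day-7 library was above every control, while at day 14 and day 28 the libraries overlapped the controls. It rose by 1.12 ± 0.28 at day 7 (adjusted p = 0.0139, and 0.0525 without control replicate 2). Caldesmon (Cald1), another actin-binding inhibitor that also has a non-muscle form, stood at 1117, 904 and 866 CPM at day 7, 608, 729 and 570 at day 14, 561, 474 and 251 at day 28, and 578, 580 and 563 in controls. It rose by 0.75 ± 0.23 at day 7 (adjusted p = 0.0363), a call lost when any 1 of the 6 libraries compared was left out (adjusted p 0.0590 to 0.10).

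Smoothelin (Smtn), a protein of fully contractile smooth muscle, moved the other way. It stood at 422, 244 and 281 CPM at day 7, 389, 437 and 318 at day 14, 347, 272 and 183 at day 28, and 560, 512 and 554 in controls, so that every injured library lay below every control. Its log2 fold change was −0.78 ± 0.24 at day 7 (adjusted p = 0.0326), −0.51 ± 0.24 at day 14 (adjusted p = 0.296) and −1.02 ± 0.24 at day 28 (adjusted p = 0.0131). Leiomodin (Lmod1), which starts new actin filaments in smooth muscle, stood at 181, 103 and 121 CPM at day 7, 256, 248 and 209 at day 14, 246, 149 and 96.0 at day 28, and 313, 220 and 234 in controls. It fell at day 7 (−0.92 ± 0.30, adjusted p = 0.0432). The day-7 calls of Smtn and Lmod1 were lost without day-7 replicate 2 or 3 or any 1 control (adjusted p 0.0654 to 0.113 for Smtn and 0.0653 to 0.145 for Lmod1).

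Tagln stood at 5576, 3294 and 3677 CPM at day 7, 3149, 3998 and 2601 at day 14, 2754, 2088 and 1259 at day 28, and 4006, 3722 and 3961 in controls. The day-7 libraries overlapped the controls and the day-28 libraries all lay below them. Its log2 fold change was 0.10 ± 0.28 at day 7 (adjusted p = 0.820; −0.02 when scaled by library totals) and −0.94 ± 0.28 at day 28 (adjusted p = 0.0364). Tpm1, a tropomyosin that lies along the actin filament, stood at 2256, 1657 and 1807 CPM at day 7, 1675, 1806 and 1540 at day 14, 1484, 1143 and 839 at day 28, and 1683, 1772 and 1887 in controls, and fell at day 28 (−0.62 ± 0.19, adjusted p = 0.0390). The day-28 calls of Tagln and Tpm1 were lost without day-28 replicate 2 or 3 or any 1 control (adjusted p 0.0788 to 0.0943 for Tagln and 0.0731 to 0.116 for Tpm1). The Tpm1 call was also lost with the 2 groups alone (adjusted p = 0.0661). The second tropomyosin, Tpm2, was not called on any day, with log2 fold changes of 0.15 ± 0.21 at day 7, 0.00 ± 0.21 at day 14 and −0.48 ± 0.21 at day 28.

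Among the 12 genes that anchor filaments and membrane, 4 rose and 3 fell at day 7. Desmin (Des), the intermediate filament of muscle, stood at 5628, 4009 and 5094 CPM at day 7, 2480, 3509 and 2709 at day 14, 2527, 1633 and 1153 at day 28, and 2432, 2282 and 2117 in controls. Its partner synemin (Synm), which links desmin to the membrane, stood at 853, 432 and 430 CPM at day 7, 1275, 993 and 1039 at day 14, 1023, 618 and 405 at day 28, and 1277, 1146 and 1086 in controls. The 2 partners moved apart at day 7: Des rose by 1.11 ± 0.25 (adjusted p = 0.00807) and Synm fell (−1.03 ± 0.33, adjusted p = 0.0365). The Synm call was lost without day-7 replicate 2 or 3 or any 1 control (adjusted p 0.0699 to 0.122).

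Alpha-actinin (Actn1, chromosome 6, 103376557-103470497 on rn6, minus strand), which crosslinks actin at plaques and dense bodies, stood at 833, 912 and 1163 CPM at day 7, 376, 611 and 390 at day 14, 438, 344 and 231 at day 28, and 318, 346 and 343 in controls. It had the largest rise of the 37 at day 7, 1.53 ± 0.24 on the log2 scale (adjusted p = 0.00109), and at day 28 its value was 0.01 ± 0.24. Vinculin (Vcl), which joins actin to integrins, stood at 1382, 1205 and 1486 CPM at day 7, 826, 887 and 909 at day 14, 731, 509 and 404 at day 28, and 709, 752 and 737 in controls. It rose by 0.89 ± 0.18 at day 7 (adjusted p = 0.00431). The LIM protein Pdlim7 stood at 295, 191 and 239 CPM at day 7, 147, 177 and 146 at day 14, 147, 134 and 83.8 at day 28, and 159, 160 and 159 in controls. It rose by 0.60 ± 0.20 at day 7 (adjusted p = 0.0431), a call lost without day-7 replicate 1 or 3 or any 1 control (adjusted p 0.0948 to 0.141).

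Dystrophin (Dmd, chromosome X, 51149358-53519271 on rn6, plus strand), which ties actin to the membrane along caveolar bands, fell. It stood at 147, 98.4 and 98.4 CPM at day 7, 263, 239 and 233 at day 14, 199, 139 and 106 at day 28, and 304, 288 and 288 in controls. Every injured library lay below every control. The log2 fold change was −1.35 ± 0.21 at day 7 (adjusted p = 0.00100), −0.26 ± 0.21 at day 14 (adjusted p = 0.573) and −0.99 ± 0.21 at day 28 (adjusted p = 0.00777). Pdlim3, a LIM protein that binds alpha-actinin, stood at 113, 58.7 and 59.4 CPM at day 7, 118, 153 and 110 at day 14, 98.1, 82.5 and 59.3 at day 28, and 125, 150 and 148 in controls, and fell at day 7 (−0.87 ± 0.26, adjusted p = 0.0281) and at day 28 (−0.82 ± 0.26, adjusted p = 0.0466). Csrp1, a LIM protein of the actin cytoskeleton, stood at 2498, 1713 and 1837 CPM at day 7, 2405, 2538 and 2028 at day 14, 2234, 1590 and 1062 at day 28, and 2565, 2884 and 2690 in controls, and fell at day 28 (−0.74 ± 0.23, adjusted p = 0.0492). The Pdlim3 calls were lost without several single libraries: day-7 replicate 2 or 3 or control replicate 2 or 3 at day 7 (adjusted p 0.0782 to 0.0984), and day-28 replicate 2 or 3 or any 1 control at day 28 (adjusted p 0.0728 to 0.153). The day-28 call of Pdlim3 was also lost with library totals (adjusted p = 0.0550). The Csrp1 call was lost without day-28 replicate 2 or 3 or any 1 control (adjusted p 0.0905 to 0.131) and with RLE size factors, library totals, removal of haemoglobin and mitochondrial genes, or the 2 groups alone (adjusted p at most 0.0773).

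The other anchors, Synpo2, Flna, Ldb3 and Cav1, were called on no day against control. Caveolin (Cav1), the coat of caveolae, had all 3 day-7 libraries above the controls (0.67 ± 0.27, adjusted p = 0.0882). Synaptopodin-2 (Synpo2, −0.85 ± 0.31, adjusted p = 0.0626) and Ldb3 (−0.79 ± 0.31, adjusted p = 0.0795) had all 3 day-7 libraries below them. Filamin A (Flna), an actin crosslinker of most cell types, overlapped the controls at day 7 (−0.15 ± 0.22) and lay below them at day 28 (−0.60 ± 0.22, adjusted p = 0.0896).

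**Figure D3:**
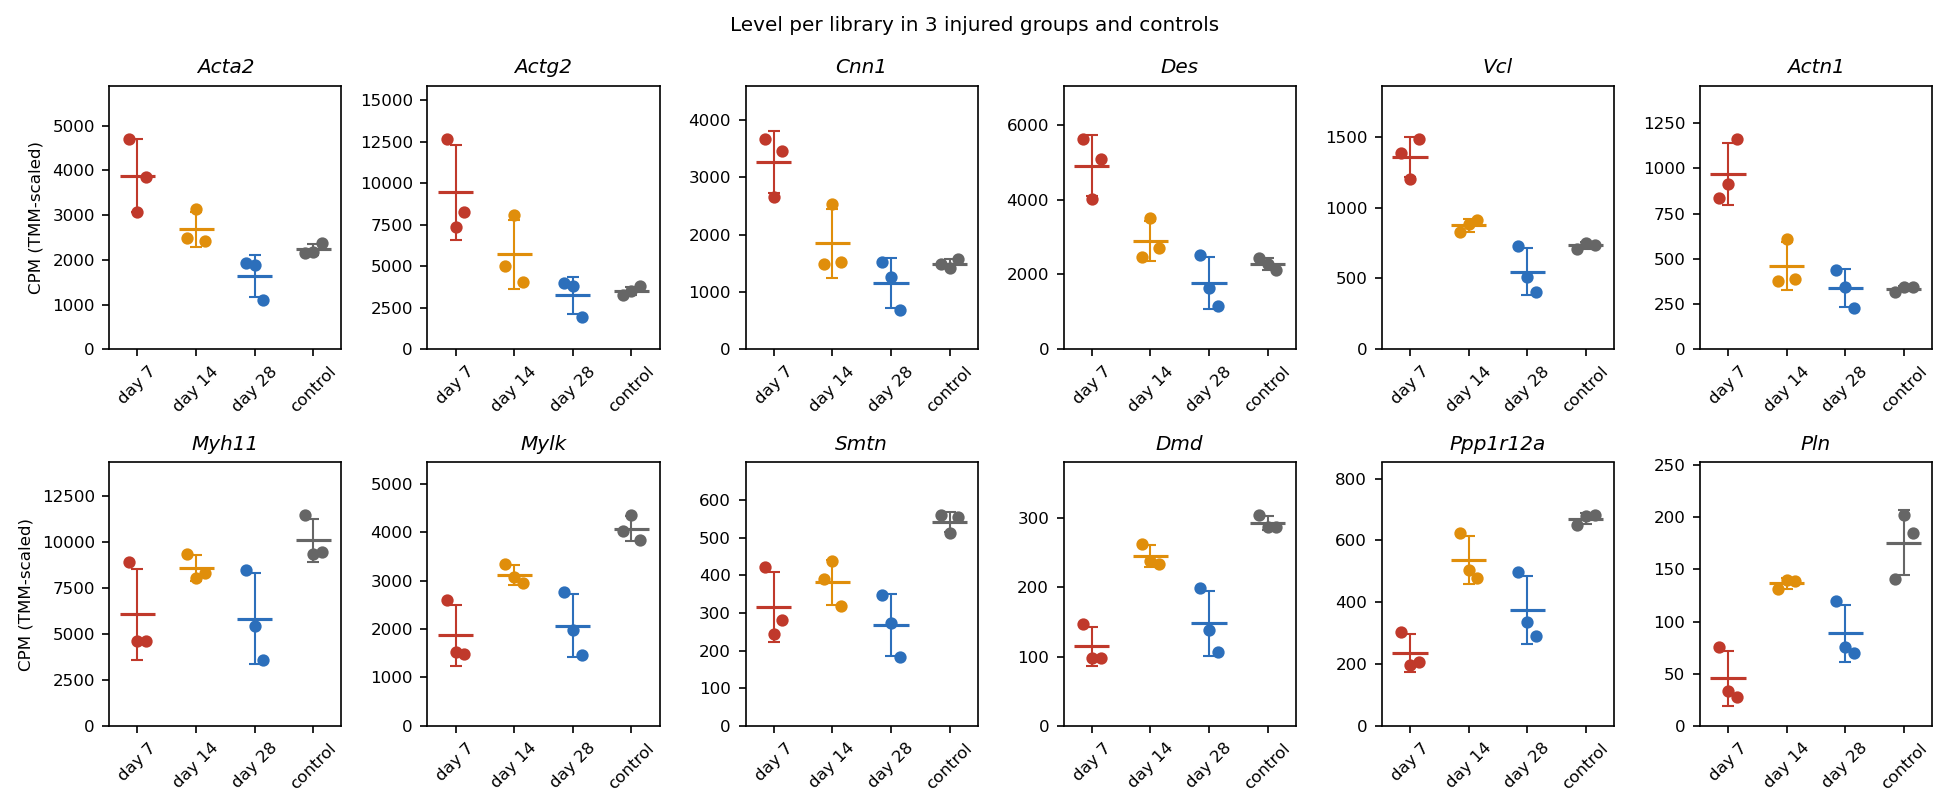
TMM-scaled CPM (vertical axis, from 0) of 12 genes in each of the 3 libraries at day 7, day 14, day 28 and in controls, with replicates 1 to 3 from left to right, the mean as a bar and 1 SD as the error bar. In the upper row every day-7 library lies above every control, and in the lower row every day-7 library lies below every control.

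Of the 5 genes grouped around myosin phosphatase, 2 fell and 0 rose at day 7. Ppp1r12a (chromosome 7, 51404971-51515382 on rn6, minus strand) encodes the subunit that targets the phosphatase to myosin. It stood at 305, 196 and 206 CPM at day 7, 624, 506 and 479 at day 14, 499, 335 and 292 at day 28, and 651, 679 and 682 in controls. Every injured library lay below every control, and the day-7 libraries lay below every day-14 library. Its log2 fold change was −1.51 ± 0.21 at day 7 (adjusted p = 0.000620, the smallest of the 37), −0.32 ± 0.21 at day 14 (adjusted p = 0.469) and −0.84 ± 0.21 at day 28 (adjusted p = 0.0182). The day-28 call was lost without day-28 replicate 2 or 3 or control replicate 2 or 3 (adjusted p 0.0552 to 0.0693). Ppp1r14a, also called CPI-17, inhibits the same phosphatase. It stood at 36.5, 17.3 and 19.7 CPM at day 7, 38.1, 33.2 and 28.2 at day 14, 38.2, 21.6 and 17.2 at day 28, and 46.3, 43.1 and 51.1 in controls, and fell at day 7 (−0.94 ± 0.31, adjusted p = 0.0447). That call was lost without day-7 replicate 2 or 3 or any 1 control (adjusted p 0.0808 to 0.145). The second targeting subunit, Ppp1r12b, was not called (−0.64 ± 0.24 at day 7, adjusted p = 0.0659). Rock1 and Rock2, protein kinases that favour contraction, were not called either: Rock1 had log2 fold changes of −0.05 ± 0.10 at day 7, 0.11 ± 0.10 at day 14 and 0.10 ± 0.10 at day 28, and Rock2 had 0.55 ± 0.22, 0.49 ± 0.22 and −0.02 ± 0.22.

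The transcription factors of the programme were not called on any day. Myocd (myocardin) stood at 183, 92.1 and 112 CPM at day 7, 193, 130 and 115 at day 14, 164, 95.2 and 67.1 at day 28, and 175, 187 and 152 in controls. Srf stood at 107, 96.7 and 144 CPM at day 7, 136, 140 and 171 at day 14, 127, 97.3 and 78.6 at day 28, and 130, 147 and 135 in controls. Both overlapped the controls at day 7 and day 14, and at day 28 only Srf lay wholly below them. The log2 fold changes at day 7 were −0.41 ± 0.33 for Myocd (adjusted p = 0.388) and −0.25 ± 0.18 for Srf (adjusted p = 0.350), and at day 28 they were −0.66 ± 0.33 (adjusted p = 0.193) and −0.45 ± 0.18 (adjusted p = 0.117). A p above the threshold does not show that these levels were alike.

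Of the calcium genes, phospholamban (Pln, chromosome 20, 34633157-34642904 on rn6, plus strand), which brakes the calcium pump of the internal store, had the largest fall of the 37 at day 7. It stood at 76.0, 33.5 and 27.4 CPM at day 7, 131, 140 and 139 at day 14, 120, 75.6 and 70.2 at day 28, and 141, 202 and 184 in controls. The day-7 libraries lay far below the controls, and all 3 day-14 libraries lay above all 3 day-7 libraries. Its log2 fold change was −1.94 ± 0.34 at day 7 (adjusted p = 0.00195), −0.36 ± 0.33 at day 14 (adjusted p = 0.625) and −0.99 ± 0.33 at day 28 (adjusted p = 0.0587, called by DESeq2 with adjusted p = 0.0158 and without day-28 replicate 1 with adjusted p = 0.0318). Pln overlaps Cep85l, a gene on the other strand with counts equal to 29.7% of those of Pln, and the sources used here do not say whether reads were counted by strand, so part of the counts of either gene may belong to the other. Cep85l itself fell by 0.40 on the log2 scale at day 7 (adjusted p = 0.0451), a smaller change than that of Pln.

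Atp2a2, the calcium pump itself, stood at 513, 482 and 501 CPM at day 7, 618, 548 and 709 at day 14, 635, 506 and 469 at day 28, and 682, 657 and 616 in controls. It fell at day 7 by 0.39 on the log2 scale (SE 0.13, adjusted p = 0.0459), a call lost when any 1 of the 6 libraries was left out (adjusted p 0.0606 to 0.129). The Atp2a2 call was also lost with no filter (adjusted p = 0.0647). Cacna1c, the pore of the L-type channel through which calcium enters, stood at 122, 75.2 and 78.8 CPM at day 7, 131, 98.8 and 94.1 at day 14, 107, 71.1 and 48.5 at day 28, and 108, 101 and 98.0 in controls, and was not called on any day. Dcp1b, which overlaps it on the other strand, had counts equal to 14.0% of those of Cacna1c. Ryr2, a store release channel best known from heart, stood at 7.26, 4.80 and 4.38 CPM at day 7, 6.26, 8.39 and 6.73 at day 14, 8.24, 5.79 and 6.32 at day 28, and 5.46, 4.77 and 6.57 in controls, with overlap throughout. Jph2, which holds store and surface membrane together, was not called either, with −0.32 ± 0.27 at day 7 and −0.72 ± 0.27 at day 28.

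Ratios between a pair of genes inside 1 library do not depend on how libraries are scaled, and 4 were tested with a two-sided exact permutation test, for which 3 against 3 libraries cannot give a p below 0.1. Over the 12 comparisons an exact p of 0.1 became 0.15 after Benjamini-Hochberg adjustment, so none passed a threshold of 0.05. Acta2 counts over Actg2 counts were 0.372, 0.419 and 0.464 at day 7, 0.499, 0.389 and 0.600 at day 14, 0.484, 0.491 and 0.560 at day 28, and 0.656, 0.620 and 0.629 in controls. Every injured library lay below every control (exact permutation p = 0.1 at each day, adjusted 0.15). Myh10, a non-muscle myosin heavy chain, over Myh11 was 0.0280, 0.0575 and 0.0779 at day 7, 0.00919, 0.0114 and 0.0137 at day 14, 0.0146, 0.0186 and 0.0151 at day 28, and 0.00900, 0.0111 and 0.0132 in controls. The difference in mean log2 ratio was 2.19 at day 7 (exact p = 0.1), 0.04 at day 14 (exact p = 0.7) and 0.54 at day 28 (exact p = 0.1).

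Pln over Atp2a2, the brake relative to its pump, was 0.148, 0.0696 and 0.0546 at day 7, 0.212, 0.255 and 0.195 at day 14, 0.189, 0.149 and 0.150 at day 28, and 0.206, 0.307 and 0.299 in controls. The difference in mean log2 ratio was −1.69 at day 7 (exact p = 0.1), −0.28 at day 14 (exact p = 0.3) and −0.72 at day 28 (exact p = 0.1). Ppp1r14a over Ppp1r12a, the inhibitor relative to the phosphatase subunit, was 0.120, 0.0882 and 0.0956 at day 7, 0.0611, 0.0657 and 0.0589 at day 14, 0.0765, 0.0644 and 0.0591 at day 28, and 0.0711, 0.0635 and 0.0749 in controls. That ratio was higher in every day-7 library than in every control (difference 0.53, exact p = 0.1), with −0.17 at day 14 (exact p = 0.2) and −0.07 at day 28 (exact p = 0.8).

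**Figure D4:**
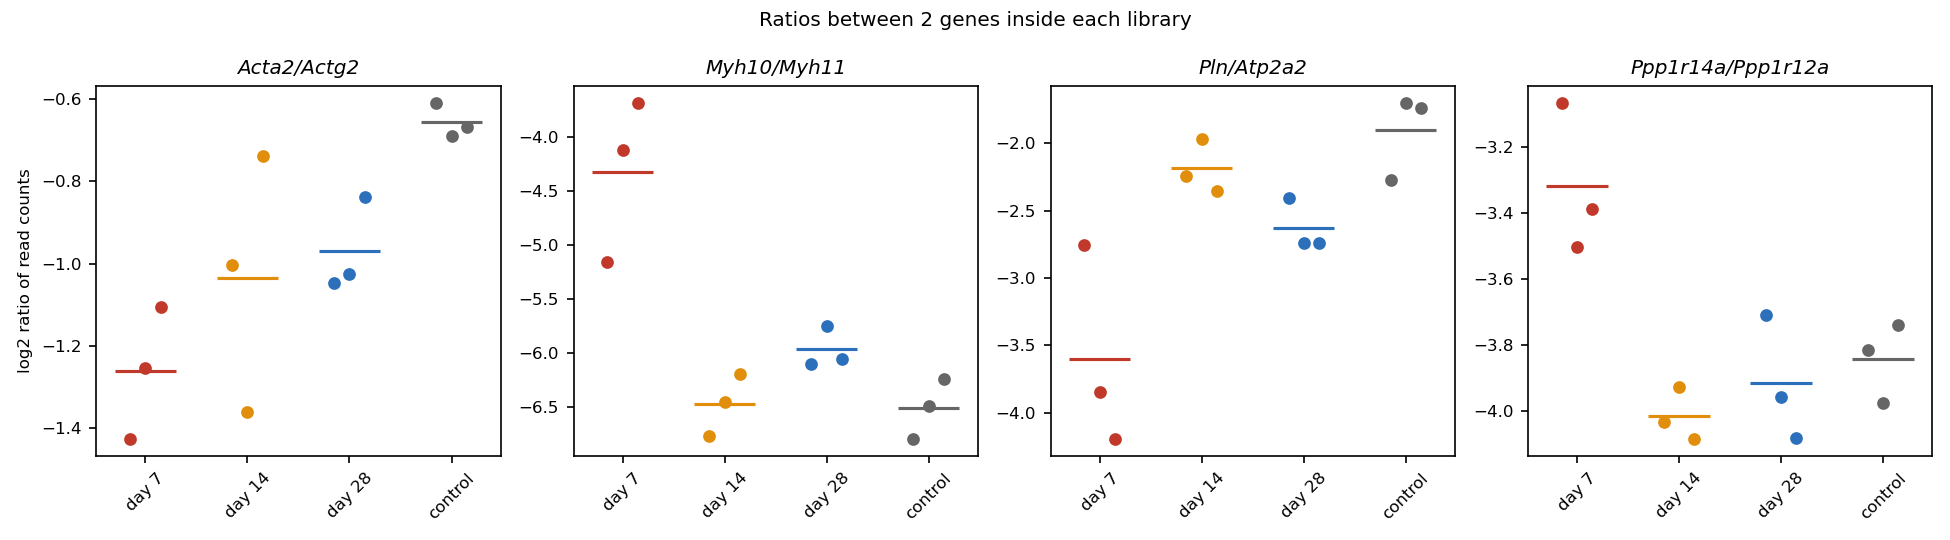
Log2 ratio of read counts of 2 genes inside each library (vertical axis), with the mean as a line, for day 7, day 14, day 28 and control. Acta2/Actg2 is below all controls in every injured library, Myh10/Myh11 is highest and Pln/Atp2a2 lowest at day 7, and Ppp1r14a/Ppp1r12a is above all controls at day 7 and overlaps them later.

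The 3 other ratios were chosen after the values were seen and carry no test. Des over Synm was 6.60, 9.27 and 11.8 at day 7, 1.94, 3.53 and 2.61 at day 14, 2.47, 2.64 and 2.85 at day 28, and 1.90, 1.99 and 1.95 in controls. Actn1 over Dmd was 5.65, 9.26 and 11.8 at day 7, 1.43, 2.56 and 1.67 at day 14, 2.21, 2.48 and 2.17 at day 28, and 1.04, 1.20 and 1.19 in controls. Actg2 over Myh11 was 1.43, 1.58 and 1.79 at day 7, 0.535, 1.01 and 0.488 at day 14, 0.470, 0.706 and 0.549 at day 28, and 0.288, 0.374 and 0.400 in controls. In each of the 3 the day-7 libraries were the highest, and the day-28 libraries lay above all controls.

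The direct comparisons between injured days came next. From day 7 to day 14, 3 genes rose, Pln (1.58 ± 0.34, adjusted p = 0.00839), Ppp1r12a (1.19 ± 0.21, adjusted p = 0.00355) and Dmd (1.10 ± 0.21, adjusted p = 0.00498), against 7.59% of all tested genes. In the same interval 3 fell, Actn1 (−1.08 ± 0.24, adjusted p = 0.01), Vcl (−0.64 ± 0.18, adjusted p = 0.0287) and Pdlim7 (−0.63 ± 0.20, adjusted p = 0.0465), against 12.0% of all tested genes. Neither count stood out from its background. Each of these genes had been called at day 7 against control in the opposite direction. The same day-7 libraries enter both comparisons, so a gene high or low in them is favoured to move back here. Scaling by library totals moved the median of all tested genes to 0.14 here and gave 11 higher and 2 lower. The Vcl and Pdlim7 calls were lost without day-7 replicate 1 or 3 or any 1 day-14 library (adjusted p 0.0581 to 0.0972 for Vcl and 0.0568 to 0.147 for Pdlim7). The Pdlim7 call was also lost with RLE size factors, library totals or the 2 groups alone (adjusted p at most 0.0844). Without day-7 replicate 1 there were 10 calls.

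From day 14 to day 28 all 37 log2 fold changes were below 0, with a median of −0.54, and 0 passed the test, while 3.13% of all tested genes rose and 1.22% fell. Of the 37, 18 had an unadjusted p under 0.05, and DESeq2 called 4 lower. Without day-28 replicate 1, edgeR called 11 lower.

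Between day 7 and day 28, 12 genes fell and 1 rose, against 10.8% and 7.89% of all tested genes. The day-7 libraries are those of the comparison with control, so a gene high in them is favoured to fall here, and the 8 genes that had risen at day 7 were among the 12: Actg2 (−1.53 ± 0.32, adjusted p = 0.00767), Actn1 (−1.52 ± 0.24, adjusted p = 0.00211), Cnn1 (−1.50 ± 0.29, adjusted p = 0.00516), Des (−1.47 ± 0.25, adjusted p = 0.00319), Vcl (−1.31 ± 0.18, adjusted p = 0.00104), Acta2 (−1.25 ± 0.22, adjusted p = 0.00352), Cald1 (−1.17 ± 0.24, adjusted p = 0.00670) and Pdlim7 (−0.99 ± 0.20, adjusted p = 0.00647). Tagln, Cav1, Tpm1 and Myl6 made up the rest, at −1.04, −0.86, −0.72 and −0.47 on the log2 scale. The gene that rose was Ppp1r12a (0.67 ± 0.21, adjusted p = 0.0461), lost without day-7 replicate 2 or 3 or day-28 replicate 1 or 2 (adjusted p 0.0596 to 0.179). The Ppp1r12a call was also lost with the 2 groups alone (adjusted p = 0.129) and without haemoglobin and mitochondrial genes (adjusted p = 0.0501). The calls of Tagln and Tpm1 were lost without day-7 replicate 1 or day-28 replicate 2 or 3, that of Myl6 also without day-7 replicate 3, and that of Cav1 also without day-7 replicate 2 or 3 (adjusted p 0.0554 to 0.135 over these 4 genes). With the 2 groups alone all 4 calls were lost, and with library totals those of Myl6 and Cav1 (adjusted p 0.0722 to 0.0921). Scaling by library totals gave 10 lower and 3 higher, and moved the median of all tested genes to 0.17. Without day-28 replicate 2 there were 8 calls.

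The lists that follow stand beside the background of 15.6% higher and 10.5% lower at day 7 and 11% higher and 7.51% lower at day 28. Among 14 non-muscle forms of the same filament proteins, 6 rose and 0 fell at day 7, with a median of 0.63, and at day 28 there were 1 higher and 1 lower. Tpm4, a non-muscle tropomyosin, rose by 1.84 ± 0.27 (adjusted p = 0.000709), Myh10 by 1.40 ± 0.26 (adjusted p = 0.00255) and Cnn2, a calponin of non-muscle cells, by 1.07 ± 0.14 (adjusted p = 0.000426) at day 7. Of 18 tested adhesion and dense body genes, 9 rose and 0 fell at day 7, with 1 higher and 1 lower at day 28. Itga8, an integrin of smooth muscle and mesenchyme, stood at 107, 186 and 269 CPM at day 7, 22.0, 82.2 and 57.9 at day 14, 57.8, 69.0 and 19.4 at day 28, and 6.89, 7.22 and 9.68 in controls. It rose at day 7 (4.56 ± 0.59, adjusted p = 0.000413), day 14 (2.77 ± 0.55, adjusted p = 0.0308) and day 28 (2.62 ± 0.55, adjusted p = 0.00738). Itga5, part of the fibronectin receptor, rose at day 7 (2.97 ± 0.35, adjusted p = 0.000250).

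Ppp1cb, the catalytic subunit of myosin phosphatase, fell at day 7 along with its targeting subunit Ppp1r12a (−0.76 ± 0.09, adjusted p = 0.000321). Of 17 calcium handling genes, 3 rose and 5 fell at day 7 and 1 rose and 3 fell at day 28. Itpr1, the store release channel of smooth muscle, fell at both (−0.94 ± 0.17, adjusted p = 0.00245, at day 7 and −0.79 ± 0.17, adjusted p = 0.00857, at day 28), and Casq2, which buffers calcium in the store, rose at day 7 (1.15 ± 0.25, adjusted p = 0.00632). Of 13 SRF and myocardin partners, 3 rose and 1 fell at day 7 and 2 rose and 2 fell at day 28, counts too small to tell from that background. Elk3, which competes with myocardin for SRF, rose at day 7 (1.11 ± 0.15, adjusted p = 0.000436) and Prdm6, a repressor found in smooth muscle, fell (−1.21 ± 0.25, adjusted p = 0.00526). Of 13 genes of the dystrophin complex and caveolae, 0 rose and 2 fell at day 7, Sgca and Sgce, and 0 rose and 5 fell at day 28. At day 14, 0 genes of these lists fell and 2 rose, the SRF partner Klf5 (0.66 ± 0.14, adjusted p = 0.0353) and Itga8.

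Markers of other cells moved on the same days, and each range given is the summed level of the whole list. At day 7, 3 of 9 fibroblast genes rose and 0 fell, and their summed level was 35274 to 43124 CPM against 20246 to 25978 in controls. At day 28, 1 rose and 3 fell, with a sum of 7986 to 17130 CPM. All 6 endothelial genes rose at day 7 (537 to 618 CPM against 157 to 176 in controls) and 5 of 6 at day 28 (260 to 421 CPM). All 7 macrophage and leukocyte genes rose at day 7 (581 to 673 CPM against 211 to 239 in controls) and at day 28 (756 to 1002 CPM). All 7 cell cycle genes rose at day 7 (429 to 580 CPM against 22.6 to 53.4 in controls) and 6 of 7 at day 28.

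Of 7 genes of pericytes and vascular muscle, 4 rose and 1 fell at day 7 (717 to 792 CPM against 530 to 551 in controls) and 1 rose and 1 fell at day 28. Of 13 urothelial genes, 0 rose and 5 fell at day 7 (5274 to 6592 CPM against 8222 to 9126 in controls), and 1 rose and 6 fell at day 28. Of 5 Schwann cell genes, 3 fell on each of these days and 0 rose. All 4 adipocyte genes rose at day 7 (14.1 to 82.1 CPM against 0.291 to 0.750 in controls), with the highest sum in replicate 1. At day 28, 2 of them rose and 0 fell (0.667 to 25.6 CPM). Day-7 replicate 1, in which 32 of the 37 contractile genes were highest, also had the highest endothelial, Schwann cell, striated and heart muscle sums. Its fibroblast, urothelial, mesothelial, cell cycle and haemoglobin sums were the lowest of that day. Of 10 tested striated muscle genes, 3 rose, Acta1 among them, and 2 fell at day 7. The striated sum was 1902, 1101 and 1049 CPM at day 7 against 250, 295 and 249 in controls. Most of the day-7 sum was Acta1, whose share of reads is uncertain, at 1612, 977 and 914 CPM. In controls Acta1 held 65.4, 72.5 and 73.3 CPM of the sum. Of 3 tested heart genes 0 rose and 2 fell at day 7. The other was the cardiac actin Actc1, which was not called (2.64 ± 0.91, adjusted p = 0.0521). Its levels were 429, 88.9 and 150 CPM at day 7 and 35.9, 45.5 and 25.4 in controls. Every day-7 library of Actc1 lay above every control, and its share of reads is uncertain too. Of 4 mesothelial genes 0 were called at day 7 and 1 fell at day 28. All 3 haemoglobin genes rose at day 7 and 0 were called at day 28. At day 14 against control, 4 of the 7 macrophage genes rose (the sum of all 7 was 316 to 546 CPM), 1 fibroblast gene, Lum, fell (the sum of all 9 was 9813 to 14289 CPM), as did 1 gene each of pericytes, urothelium and Schwann cells, and 3 striated muscle genes rose. The part of these cells in the changes of the 37 contractile genes was not tested.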

How the data were processed

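Total RNA of 12 whole-bladder samples, depleted of ribosomal RNA, was sequenced with single reads of 50 bases, per the labels' protocols. The deposited gene table gives raw read counts, which the authors made with HISAT2 2.1.0 and HTSeq 0.11.2 on rn6, per the submitters' processing notes, and TPM, which the authors computed from them: 100% of the deposited TPM values equal counts over gene length, rescaled, within 1e-06. The deposited tables of non-coding RNA and of the authors' own comparisons were not used here.

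Counts were tested with edgeR 4.0.16 (R 4.3.3): filterByExpr (minimum count 10, minimum total 15), TMM scaling, 1 quasi-likelihood model over the 12 libraries with 4 groups, and Benjamini-Hochberg adjustment over all 17687 tested genes, with calls at an adjusted p under 0.05. All adjusted p-values are from this fit unless another is named. CPM values use TMM-scaled library sizes. The SE is the log2 fold change divided by the root of F. DESeq2 1.42.0, 2 other scalings, removal of haemoglobin and mitochondrial genes, no filter, fits of 2 groups alone, a replicate block, leaving out each library, and a minimum log2 fold change of 1 were alternatives. The fit was tested on simulated data.

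The 37 genes and the lists were chosen with earlier results of these data known. Values in every library are given for 15 core genes of the 37 and for any other called against control on any day, and the rest are given by ranges and counts. Up to 3 called genes are named per list. Libraries of a group differed by 16.1 to 125 times the variance of counting alone, so none was the same library sequenced again. Separate preparations from the same rat could also differ by more than counting, so these values cannot tell whether libraries came from separate rats. Same-numbered libraries of different groups had correlations of deviations from −0.022 to 0.15, over 0.1 in 5 of 18 pairs. Differently numbered pairs were not compared, so whether replicate numbers pair libraries is not known. A few results on genes outside the 37 are not reported here.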

Additional observations from a re-analysis of the deposited data

Results flagged for a closer look

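These genes were singled out because their difference from control was not alike on 2 injured days, by the edgeR test of one day against the other. From day 7 to day 14 the log2 difference was 1.58 for Pln, 1.19 for Ppp1r12a, 1.10 for Dmd, −0.64 for Vcl, −1.08 for Actn1 and −0.63 for Pdlim7. From day 7 to day 28 it was 0.67 for Ppp1r12a, −1.53 for Actg2, −1.52 for Actn1, −1.50 for Cnn1, −1.47 for Des, −1.31 for Vcl, −1.25 for Acta2 and −1.17 for Cald1. Over the same interval it was −1.04 for Tagln, −0.99 for Pdlim7, −0.86 for Cav1, −0.72 for Tpm1 and −0.47 for Myl6. The controls cancel in these differences, so each rests on 3 libraries against 3. The day-7 libraries also entered the comparison with control, so genes high or low in them are favoured to be listed here.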

How the results depend on the processing

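Over the alternatives run for the 15 core genes against control and for every other value called, 886 values kept their direction and their side of the threshold, 122 lost the call, 18 gained one and 14 turned. At day 7 against control the 18 calls became 9 with a log2 fold change of at least 1, and ran from 8 to 17 with 1 library left out. At day 28 against control the 9 became 15 with DESeq2, 19 with the replicate block and 1 with a log2 fold change of at least 1, and ran from 3 to 27 with 1 library left out. From day 7 to day 14 the 6 became 13 with library totals, 13 with DESeq2 and 11 with the block, and ran from 4 to 10. From day 14 to day 28 the 0 became 1 with library totals, 1 with no filter, 4 with DESeq2 and 1 with the block, and ran from 0 to 11. Between day 7 and day 28 the 13 became 8 with the 2 groups alone and 8 with a log2 fold change of at least 1, and ran from 8 to 17. The replicate block, whose numbers share no stated animal or batch, gave 22 calls at day 7, 0 at day 14 and 15 from day 7 to day 28. The share of counts of the 37 members in controls was 5.80% without haemoglobin and mitochondrial genes. The cause of these changes was not tested.

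Values near 0 turned. Tagln at day 7 was −0.023 with library totals, and ran from −0.17 to 0.23 with 1 library left out. With 1 library left out, Actg2 at day 28 ran from −0.29 to 0.15, Atp2a2 at day 14 from −0.15 to 0.027, Cacna1c at day 14 from −0.080 to 0.18, Myl9 at day 14 from −0.024 to 0.080 and at day 7 from −0.36 to 0.061, and Ryr2 at day 7 from −0.30 to 0.10. The log2 ratio Myh10/Myh11 at day 14 ran from −0.10 to 0.19 and Ppp1r14a/Ppp1r12a at day 28 from −0.18 to 0.011.

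Over all tested genes, the 4622 calls at day 7 became 2346 with a log2 fold change of at least 1 and 3061 at the fewest with 1 library left out. The 433 at day 14 became 1302 with DESeq2 and 16 at the fewest with 1 library left out. The 3275 at day 28 became 1835 and 1971 in the same way as at day 7. Between day 7 and day 14, 3457 became 2195 with the 2 groups alone, 1470 with the fold change and 1959 at the fewest. From day 14 to day 28, 768 became 1609 with DESeq2, 42 with the 2 groups alone, 472 with the fold change and 261 at the fewest. From day 7 to day 28, 3310 became 1591 with the fold change and 1954 at the fewest. With library totals 2248 of 5383 calls at day 7 were higher, against 2757 of 4622. Ryr2 had the lowest CPM of the 37 in each library, at 4.38 to 8.39 CPM.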
